A study of Mus musculus with 12 samples.

Results

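Spermatogonia genes were followed through an anti-ORF1p immunoprecipitation from mouse testis. The set holds 10 of the 20981 genes in the deposited tables: Zbtb16, Gfra1, Uchl1, Kit, Stra8, Dmrt1, Sohlh1, Etv5, Sall4 and Lin28a. They were chosen by name as genes that mark or direct spermatogonia, and each gene row whose identifier equalled one of these names was taken. The rule uses no measured value, but the names were chosen with earlier results of these data known. All 10 had a row in each of the 3 tables and passed the filter on low values.

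The study sequenced RNA of 12 libraries, 3 for each of 4 groups, from testes of C57BL/6 mice that lack Mael (Mael-/-) and were 3 months old. TOTAL was the clarified testis extract with EDTA, which takes ribosomes apart. INPUT was the pool of fractions 5 to 8 after the extract had been spun through a sucrose gradient. IP was the material that an antibody against L1 ORF1p recovered from INPUT, and BO (Beads Only) was the material that beads without antibody recovered from INPUT. The comparisons ask which RNAs sit in complexes with ORF1p, the RNA-binding protein encoded by the L1 retrotransposon. The Mael deletion was shared by every group, so no group shows these genes in a testis with Mael. Tissue was whole testis, so for the level of an mRNA in TOTAL the number of cells that carry it and the RNA per cell cannot be told apart. The comparisons between groups are between fractions of such extracts. The labels do not say whether the 3 libraries of a group came from separate animals.

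Spermatogonia are the mitotic germ cells at the base of the seminiferous tubule. The undifferentiated ones, which include the stem cells, are kept by GDNF from Sertoli cells, which acts through the receptor pair GFRA1 and RET. Retinoic acid drives them into differentiating divisions that depend on KIT and its ligand, and then into meiosis through STRA8. MAEL is a germ cell factor of the piRNA pathway that keeps L1 silent, and germ cells without it are largely lost during meiosis.

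Values are DESeq2-normalized read counts, which are relative within the RNA sequenced. They do not give the amount of RNA that the antibody or the bare beads recovered. The tables give the authors' mean of each group and no value per library. For IP, the reads of each library on each gene could be recovered, since 3 means of the same 3 libraries are given on 3 scales. The recovered IP libraries are called a, b and c here, and which replicate number each one has is not known. For TOTAL, INPUT and BO the means carry no spread between libraries, and the authors' own tests in the same tables were not used, so none of the differences below is given with a test, and 'higher' and 'lower' describe group means. Levels are printed on the scale of the table of IP and TOTAL. INPUT and BO means come from other tables and were put on that scale through each gene's IP mean. Ratios are log2 of the means plus 1, and a gene was counted when it passed 2-fold. Genes with a mean of at least 10 in either group were used, between 14135 and 15150 per comparison.

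Mael itself had 0 reads in the 3 IP libraries, a mean of 0 in INPUT, 0.502 in BO and 0.65 in TOTAL, which amounts to at most 2 reads in BO and 3 in TOTAL. IP libraries held between 19754089 and 21387454 reads on genes. The BO libraries were less even than the others, with 1 read worth between 0.239 and 0.502 in the BO mean. Of 11 spermatid genes, 10 had a TOTAL mean under 40, and Spaca1, with 230.9, was the exception. Sertoli and Leydig cell markers were abundant in TOTAL, with Clu at 66084.4 and Cyp17a1 at 29894.2.

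**Figure D1:**
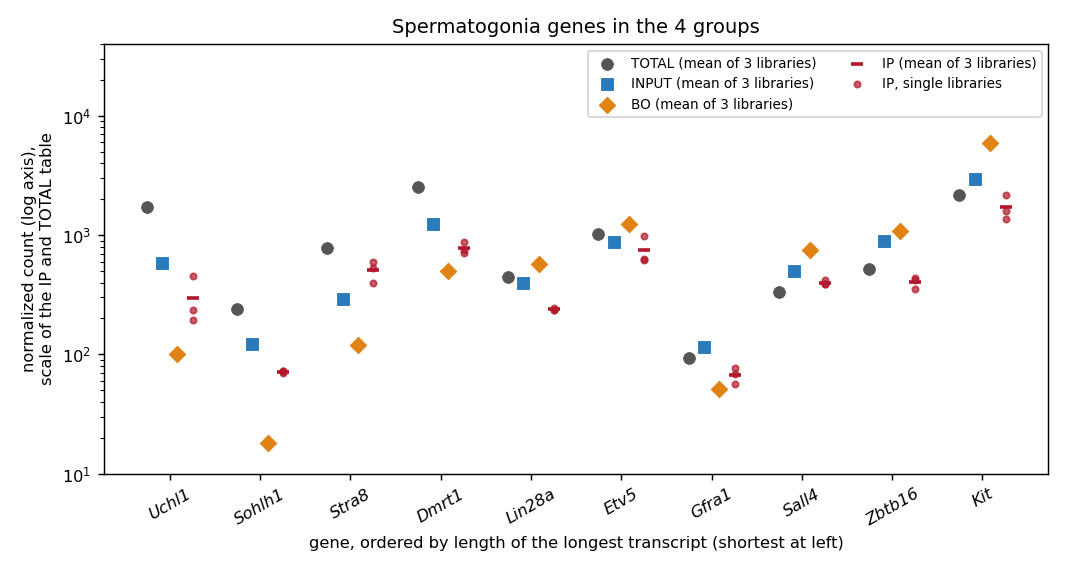
Normalized counts (log axis, scale of the IP and TOTAL table) of the 10 spermatogonia genes, ordered by transcript length. Symbols are means of 3 libraries in TOTAL, INPUT, BO and IP, and small dots are the single IP libraries. At the short end BO is the lowest group for Uchl1, Sohlh1, Stra8 and Dmrt1, while for Kit, Zbtb16, Sall4, Etv5 and Lin28a it is the highest. Counts are relative within the RNA sequenced and are not amounts recovered.

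In the extract, Uchl1 had the highest level per length and Gfra1 the lowest. Per kb of the longest transcript, the TOTAL level was 1457.1 for Uchl1, 1070.8 for Dmrt1, 431.9 for Stra8, 409.7 for Kit, 258.8 for Etv5, 185.1 for Sohlh1, 127.8 for Lin28a, 101.2 for Zbtb16, 66.2 for Sall4 and 20.0 for Gfra1. Stra8 and Kit are neighbours in this order whose 95% counting intervals overlapped, from 414.8 to 449.6 and from 399.9 to 419.7. Intervals were computed for the fewest reads that could give each mean, and cover counting error only. The order depended on the transcript used, since with the median transcript of each gene Etv5 moved from rank 5 to rank 2 while Uchl1 stayed at rank 1 and Gfra1 at rank 10.

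None of the 10 genes passed 2-fold higher in IP over INPUT or over TOTAL. In IP vs. INPUT, 0 were higher and 1 was lower (Zbtb16), where 20.7% of all genes used were higher and 15.3% lower. That count depended on the scaling, since 7 members were lower against INPUT with upper quartile scaling (25% of all genes) and 7 with scaling to summed gene means (29% of all genes). In IP vs. TOTAL, 0 were higher and 3 were lower (Uchl1, Sohlh1 and Dmrt1), where 20.5% of all genes were higher and 27.1% lower. In IP vs. BO the genes split, with 3 higher (Stra8, Sohlh1 and Uchl1) and 3 lower (Kit, Zbtb16 and Lin28a), beside 44.3% and 11.4% of all genes. Relative to the median gene of each comparison, which stood at a log2 ratio of 0.82 for IP over BO, 0.14 over INPUT and -0.05 over TOTAL, the split against BO became 2 higher and 5 lower (18.4% and 24.6% of all genes). On that centred scale the counts were 0 higher and 2 lower against INPUT (16.9% and 18.4% of all genes) and 0 higher and 3 lower against TOTAL (21.6% and 26.2%). The share of lower genes against TOTAL was thus close to the background as deposited and when centred.

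The median log2 ratio over the 10 genes of IP was -0.17 to BO, -0.74 to INPUT and -0.54 to TOTAL. In IP vs. INPUT 9 of the 10 log2 ratios were below 0, and Stra8 was the gene above it. In IP vs. TOTAL 9 were again below 0, and Sall4 was the gene above it. With scaling to summed gene means the ratio of Sall4 became -0.28. Over all genes used the median was 0.14 to INPUT and -0.05 to TOTAL, so against TOTAL the median gene was itself below 0. As a share of the summed gene means, in which the DESeq2 scaling between groups cancels, the 10 genes together made up 599 counts per 1000000 in TOTAL, 490 in INPUT, 536 in BO and 222 in IP. The single IP libraries gave 214, 214 and 236 per 1000000, each under the means of the other 3 groups. Few genes carried these sums. From TOTAL to IP the sum of means went from 9808.2 to 5211.4. The largest falls were those of Dmrt1, from 2505.7 to 776.4, and Uchl1, from 1715.0 to 294.5. In BO, on the scale of its own table, Kit made up 4494.2 of 7884.3. The 26 further spermatogonial genes described below went the other way in sum. They made up 912 in TOTAL, 1116 in INPUT, 1050 in BO and 1459 in IP. Taf4b, Tex14 and Sohlh2 carried that rise. Their means were 3167.1, 1773.3 and 501.0 in TOTAL, in a sum of 14943.2. In IP they were 17128.5, 7210.9 and 2032.0, in a sum of 34219.2. Of the 22 genes of this list used in IP vs. TOTAL, 13 had a log2 ratio below 0. The median log2 ratio of the list was 0.05 to INPUT, -0.25 to TOTAL and -0.23 to BO.

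**Figure D2:**
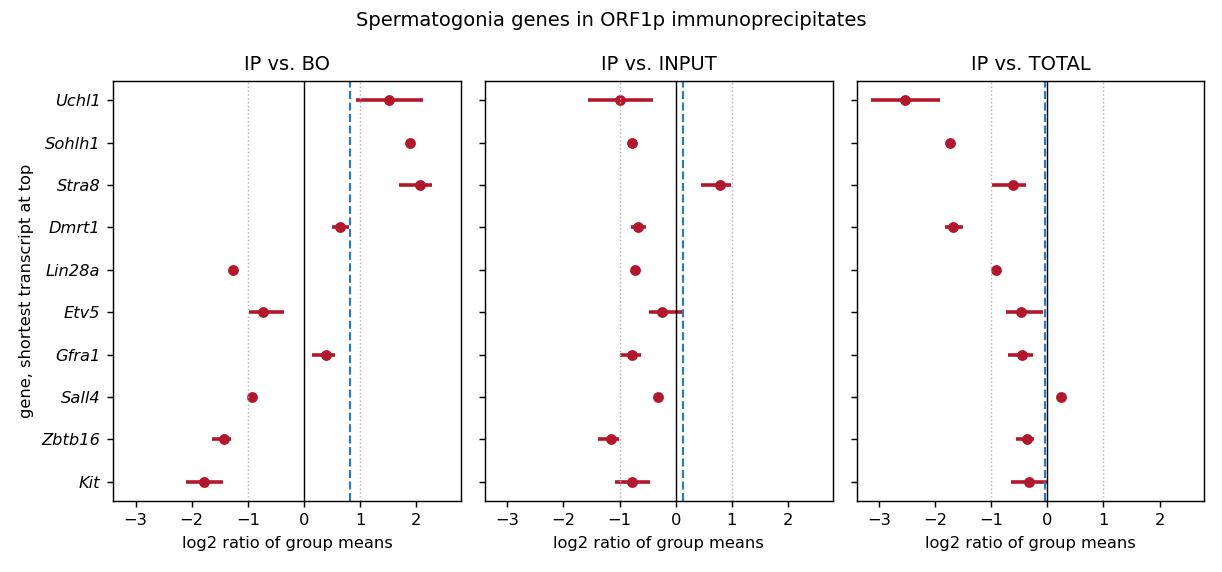
Log2 ratios of IP to BO, INPUT and TOTAL for the 10 genes, shortest transcript at the top. Dots are ratios of group means, bars span the single IP libraries against the fixed mean of the other group, dotted lines mark 2-fold and the dashed line is the median of all genes used. Against INPUT only Stra8 lies clearly to the right of 0, and against BO the genes run from 2.07 for Stra8 to -1.78 for Kit.

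Zbtb16 encodes PLZF, a transcriptional repressor needed to keep the stem cell pool. The gene lies on the minus strand of chromosome 9, from 48654297 to 48836222 in mm10. Its level was 517.8 in TOTAL, 894.0 in INPUT and 1077.7 in BO, against 438.2, 419.4 and 351.8 in IP libraries a, b and c (mean 403.1 ± 45.4, SD, n = 3). All 3 IP libraries lay below the means of the other 3 groups. The log2 ratio of IP was -0.36 to TOTAL, -1.15 to INPUT and -1.42 to BO. Zbtb16 was the one member past 2-fold lower against INPUT, and 12.7% of all genes used had a lower ratio to INPUT.

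Gfra1 encodes the GDNF-binding co-receptor of undifferentiated spermatogonia. The gene sits on chromosome 19 (minus strand, 58235604 to 58455909). Its level was 92.6 in TOTAL, 116.1 in INPUT and 51.2 in BO, and 56.6, 68.7 and 77.3 in the IP libraries (67.5 ± 10.4). As deposited, IP lay between BO and TOTAL in every library. The log2 ratio was -0.45 to TOTAL, -0.77 to INPUT and 0.39 to BO, the last of which turned to -0.43 when centred on the median gene and to -0.30 with upper quartile scaling. Gfra1 was among the members with fewest reads, between 78 and 164 behind its BO mean and 177 over the 3 IP libraries.

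Etv5 encodes an ETS transcription factor that acts downstream of GDNF signalling in the stem cells and is also made by Sertoli cells. Its locus is chromosome 16, 22381309 to 22439719, on the minus strand. TOTAL, INPUT and BO stood at 1028.7, 881.3 and 1237.0, and the IP libraries at 626.6, 620.9 and 983.2 (743.5 ± 207.5). Library c was above the INPUT mean while a and b were below it, so the log2 ratio of -0.24 to INPUT was within the spread of the IP libraries. The ratios were -0.47 to TOTAL and -0.73 to BO, with all 3 libraries below.

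Sall4 encodes a zinc finger factor of undifferentiated spermatogonia and a partner of PLZF. It is found at 168748332 to 168767943 of chromosome 2, on the minus strand. Its level was 335.9 in TOTAL, 495.1 in INPUT and 756.3 in BO, and 385.5, 385.6 and 418.8 in the IP libraries (396.6 ± 19.2). As deposited, these libraries were all above the TOTAL mean and all below the INPUT and BO means. The log2 ratio was 0.24 to TOTAL, -0.32 to INPUT and -0.93 to BO, the last just short of 2-fold.

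Lin28a encodes an RNA-binding protein that blocks let-7 maturation and is made by undifferentiated spermatogonia. The gene sits on chromosome 4 (minus strand, 134003330 to 134018841). Its level was 447.9 in TOTAL, 392.9 in INPUT and 571.4 in BO, and 234.2, 247.0 and 234.5 in the IP libraries (238.6 ± 7.3). Every IP library was below the 3 other means, for which no spread is given. The SD rests on libraries a, b and c with 240, 212 and 182 reads. The log2 ratios were -0.91 to TOTAL, -0.72 to INPUT and -1.26 to BO.

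Uchl1 encodes a ubiquitin hydrolase long used to stain spermatogonia. Its locus is chromosome 5, 66676091 to 66687234, on the plus strand. Its level was 1715.0 in TOTAL, 585.9 in INPUT and 101.5 in BO, and 193.2, 235.3 and 454.9 in the IP libraries (294.5 ± 140.5). Library c held about as much Uchl1 as both others together, yet all 3 lay below TOTAL and INPUT and above BO. The log2 ratio was -2.54 to TOTAL, the lowest of the 10, -0.99 to INPUT, just short of 2-fold, and 1.52 to BO. Without library c Uchl1 passed 2-fold lower against INPUT and the count of members there became 2. Sertoli and Leydig markers were also at their highest share in library c, with 1525 per 1000000 gene reads for 12 Sertoli genes (1406 and 1345 in a and b) and 779 for 8 Leydig genes (725 and 680). The peritubular, vessel and macrophage genes, at 200 (235 and 204), and the niche genes, at 664 (763 and 763), were at their lowest there. So were the spermatocyte genes, at 9364 (9930 and 11790). Whether any of this bears on Uchl1 was not tested.

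Dmrt1, Sohlh1, Kit and Stra8 act around the step from undifferentiated to differentiating cells and into meiosis. Dmrt1 encodes a DM-domain factor that holds off meiosis in spermatogonia and is also made by Sertoli cells. It is found at 25505618 to 25604329 of chromosome 19, on the plus strand. TOTAL, INPUT and BO stood at 2505.7, 1235.4 and 495.2, and the IP libraries at 701.7, 751.3 and 876.2 (776.4 ± 89.9). As deposited, each IP library lay between the BO and INPUT means. The log2 ratio was -1.69 to TOTAL, -0.67 to INPUT and 0.65 to BO, the last of which turned to -0.17 when centred and to -0.05 with upper quartile scaling.

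Sohlh1 encodes a helix-loop-helix factor of early differentiation. The gene sits on chromosome 2 (minus strand, 25842995 to 25847248). Its level was 238.6 in TOTAL, 122.6 in INPUT and 18.2 in BO, and 69.3, 72.2 and 72.2 in the IP libraries (71.2 ± 1.7). The IP libraries were almost equal to each other and lay between BO and INPUT. The log2 ratio was -1.73 to TOTAL, -0.77 to INPUT and 1.89 to BO. BO had the fewest reads of any member and group here, between 27 and 59, so that its counting interval ran from 33.7% below the mean to 44.7% above it.

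Kit encodes the receptor for KIT ligand, the surface mark of differentiating spermatogonia, which Leydig cells carry as well. Its locus is chromosome 5, 75574916 to 75656722, on the plus strand. Its level was 2147.2 in TOTAL, 2933.7 in INPUT and 5877.5 in BO, and 1364.4, 1585.4 and 2184.1 in the IP libraries (1711.3 ± 424.1). Library c was slightly above the TOTAL mean while a and b were below it, so the log2 ratio of -0.33 to TOTAL was within the spread of the IP libraries. Against INPUT (-0.78) and BO (-1.78) all 3 libraries were lower. The ratio to BO was the lowest of the 10, and 4.7% of all genes used had a lower one.

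Stra8 encodes the retinoic acid-induced factor that starts the meiotic programme. It is found at 34920163 to 34939344 of chromosome 6, on the plus strand. Its level was 778.8 in TOTAL, 293.2 in INPUT and 120.2 in BO, and 395.3, 531.2 and 599.2 in the IP libraries (508.5 ± 103.8). As deposited, Stra8 was higher in IP than in INPUT in all 3 libraries, and lower than in TOTAL in all 3. The log2 ratio was 0.79 to INPUT, 2.07 to BO and -0.61 to TOTAL. The first of these did not reach 2-fold and became 0.39 with upper quartile scaling and 0.26 with scaling to summed gene means, where the lowest library would lie below 0, and 72.8% of all genes used had a lower ratio to INPUT than Stra8.

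The sucrose step already separated the 10 genes. In INPUT vs. TOTAL, 0 passed 2-fold higher and 3 passed 2-fold lower, Uchl1 (-1.55), Stra8 (-1.41) and Dmrt1 (-1.02), beside 2.44% and 18.8% of all genes. Sohlh1 was just outside at -0.96. Zbtb16 (0.79), Sall4 (0.56), Kit (0.45) and Gfra1 (0.32) were above 0, while Lin28a (-0.19) and Etv5 (-0.22) were close to the median gene at -0.17. Centred on that gene, 0 were higher and 2 lower, beside 5.53% and 14.7% of all genes. This comparison has no replicate spread, and both of its tables share the IP libraries.

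The RNA from bare beads differed from INPUT in the relative level of the genes. In BO vs. INPUT, 1 gene passed 2-fold higher, Kit, with a log2 ratio of 1.0 that lies on the threshold, and 5 passed it lower, Sohlh1 (-2.67), Uchl1 (-2.51), Dmrt1 (-1.32), Stra8 (-1.28) and Gfra1 (-1.16), beside 9.24% and 35.2% of all genes. Sall4, Lin28a, Etv5 and Zbtb16 stood at 0.61, 0.54, 0.49 and 0.27. The median gene stood at -0.59, and centred on it 4 genes were higher (Kit, Sall4, Lin28a and Etv5) and 2 lower (Sohlh1 and Uchl1), beside 20.1% and 18.2% of all genes. Kit, Zbtb16 and Lin28a, the 3 genes past 2-fold lower against BO in the IP, had BO vs. INPUT ratios above 0, and Stra8, Sohlh1 and Uchl1, the 3 higher ones, had ratios below -1. Both comparisons use the same BO means, so these values are not independent of each other.

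The length of the longest transcript, which was not used to choose the genes, ordered them along both steps. The longest GENCODE M21 transcript is 1177 nt for Uchl1, 1289 for Sohlh1, 1803 for Stra8, 2340 for Dmrt1, 3505 for Lin28a, 3975 for Etv5, 4641 for Gfra1, 5073 for Sall4, 5114 for Zbtb16 and 5241 for Kit. Across the 10 genes, log2 length had a Pearson correlation of 0.94 (Spearman 0.92) with INPUT vs. TOTAL and of 0.88 (0.83) with BO vs. INPUT. Over all genes with a known length these were 0.57 (0.64) and 0.44 (0.46). With the median transcript in place of the longest, the Pearson values across the 10 genes were 0.34 and -0.05. The points share their libraries and are genes and not replicates, so the values are a description. GC content of the longest transcript had a Pearson correlation of -0.66 with BO vs. INPUT across the 10 genes and -0.46 over all genes, and of -0.43 and 0.07 with INPUT vs. TOTAL. Length and GC content were not separated from each other.

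**Figure D3:**
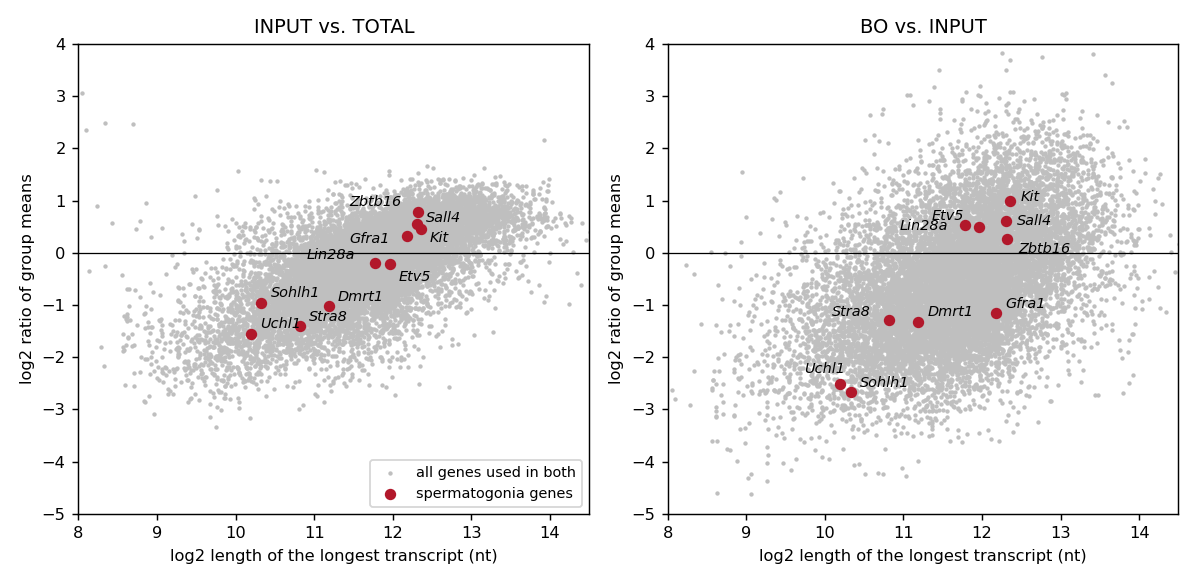
Log2 ratios of INPUT to TOTAL (left) and of BO to INPUT (right) against the log2 length of the longest transcript in nt. Red points are the 10 genes and grey points all genes used in both comparisons, a few of which lie outside the axes drawn. Short transcripts such as Uchl1 and Sohlh1 lie at the bottom left in both panels, and Gfra1 lies lower in BO vs. INPUT (-1.16) than Sall4, Zbtb16 and Kit, which are of similar length.

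In the IP comparisons, log2 length had a Pearson correlation of -0.88 (Spearman -0.87) with IP vs. BO and 0.86 (0.93) with IP vs. TOTAL across the 10 genes, beside -0.31 (-0.36) and 0.44 (0.42) over all genes. With IP vs. INPUT it was -0.14 (-0.15), beside 0.12 (0.07) over all genes. INPUT vs. TOTAL and BO vs. INPUT are differences of these IP ratios. The correlations with IP vs. BO and IP vs. TOTAL thus largely restate those given above and are no further result. With the median transcript length of each gene in place of the longest, chosen after the data had been seen, the members' Pearson values became 0.34 for INPUT vs. TOTAL, -0.05 for BO vs. INPUT, -0.05 for IP vs. BO and 0.18 for IP vs. TOTAL. Over all genes the same alternative gave 0.35, 0.34, -0.27 and 0.24. Among the 10 genes the relation therefore rests on the longest transcript, which for Etv5, Sall4 and Lin28a is much longer than the median of 489, 773 and 481 nt. With all genes split by longest transcript into 5 bins of equal size, the median log2 INPUT vs. TOTAL ratio went from -0.99 in the bin up to 1990 nt to 0.49 in the bin from 5323 nt. Uchl1, Sohlh1 and Stra8 belong to the former bin, 5 of the 10 genes to the bin from 3931 to 5322 nt, and none to the longest.

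Among 26 further spermatogonial genes, 22 were used in IP vs. TOTAL. Of these, Sohlh2, Taf4b and Tex14 were past 2-fold higher and Tspan8 and Cd9 past 2-fold lower, beside 20.5% and 27.1% of all genes. Sohlh2, the paralog and partner of Sohlh1, stood at 501.0 in TOTAL and at 1892.4 to 2134.1 in the IP libraries, a log2 ratio of 2.02, beside -1.73 for Sohlh1. Taf4b, a germ cell subunit of TFIID (2.43), and Tex14, a protein of germ cell intercellular bridges (2.02), were also higher. Tspan8 (-3.18) and Cd9 (-2.02) encode surface tetraspanins of undifferentiated cells. Neurog3 (1.10, TOTAL mean 9.0) and Nanos3 (-1.60, TOTAL mean 13.9) also passed 2-fold, but each passed the filter only through the group in which it was higher, so they are given as values and not counted.

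Against INPUT, 3 of 21 of these genes were higher, Sohlh2 (2.08), Taf4b (1.95) and Tex14 (1.26), and 4 were lower, Tspan8 (-2.10), Cd9 (-1.46), Ccnd2 (-1.30) and Ret (-1.17), beside the 20.7% and 15.3% of all genes given above. Ret, the signalling partner of GFRA1, had a level of 96.7 in TOTAL and between 54.7 and 91.5 in the IP libraries, near that of Gfra1 (-0.77 to INPUT). Lin28b, the paralog of Lin28a, stood at a log2 ratio of 0.80 to TOTAL and -0.76 to BO, where Lin28a stood at -0.91 and -1.26. Its IP libraries, from 994.5 to 1150.9, were all above the TOTAL mean of 613.7.

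The ligands and retinoid genes around spermatogonia come mostly from somatic cells. Of 12 such genes, 0 were higher and 8 lower in IP vs. TOTAL, and 1 was higher and 7 were lower in IP vs. INPUT. Of all genes, 20.5% were higher and 27.1% lower against TOTAL, and 20.7% and 15.3% against INPUT. Kitl, the ligand of KIT, had a mean of 8107.3 in TOTAL and 2358.1 to 2575.6 in the IP libraries, with log2 ratios of -1.72 to TOTAL, -1.75 to INPUT and -3.09 to BO. Gdnf, the ligand of GFRA1, had 104.8 in TOTAL and 83.9 to 121.1 in the IP libraries, so that its ratio of -0.05 was within their spread. Aldh1a2, which makes retinoic acid in germ cells, was the one gene past 2-fold higher against INPUT (1.5). Cxcl12 (-3.04), Igf1 (-2.47) and Aldh1a1 (-2.22) were among the lower genes against TOTAL.

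Markers of the neighbouring cell types give the frame for these values. Of 15 spermatocyte genes, 12 were higher over INPUT and 13 over TOTAL, with medians of 2.20 and 2.45, and none was past 2-fold lower, beside 20.7% and 20.5% of all genes higher. Sycp1 and Sycp2, of the synaptonemal complex, had log2 ratios to TOTAL of 2.92 and 2.28. Their list as a whole made up 2523 per 1000000 gene counts in TOTAL and between 9364 and 11790 in the IP libraries. Of 12 Sertoli genes 10, and of 8 Leydig genes all 8, were lower in IP vs. TOTAL, with medians of -1.69 and -2.80, among them Clu (-1.67), Amhr2 (-1.70), Cyp17a1 (-2.58) and Cyp11a1 (-1.75). Of 8 peritubular, vessel and macrophage genes, 5 were lower, with a median of -1.39. For these somatic lists the share of all genes lower against TOTAL was 27.1%. Of 11 spermatid genes, 3 passed the filter against INPUT and 8 against TOTAL. Except for Spaca1, those 8 passed only through the group in which they were higher, so the list was not counted. Spaca1, the most abundant one, had a ratio of 0.01 to TOTAL. Against TOTAL, the median of the 10 spermatogonia genes, -0.54, lay between those of the spermatocyte and somatic lists, and single genes of the lists overlapped. Against BO it did not, since the median of the 10 genes, -0.17, was below those of the Sertoli (-0.08), Leydig (0.40) and peritubular, vessel and macrophage (1.07) lists, though above that of the niche list (-0.65), beside 2.98 for the spermatocyte list.

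**Figure D4:**
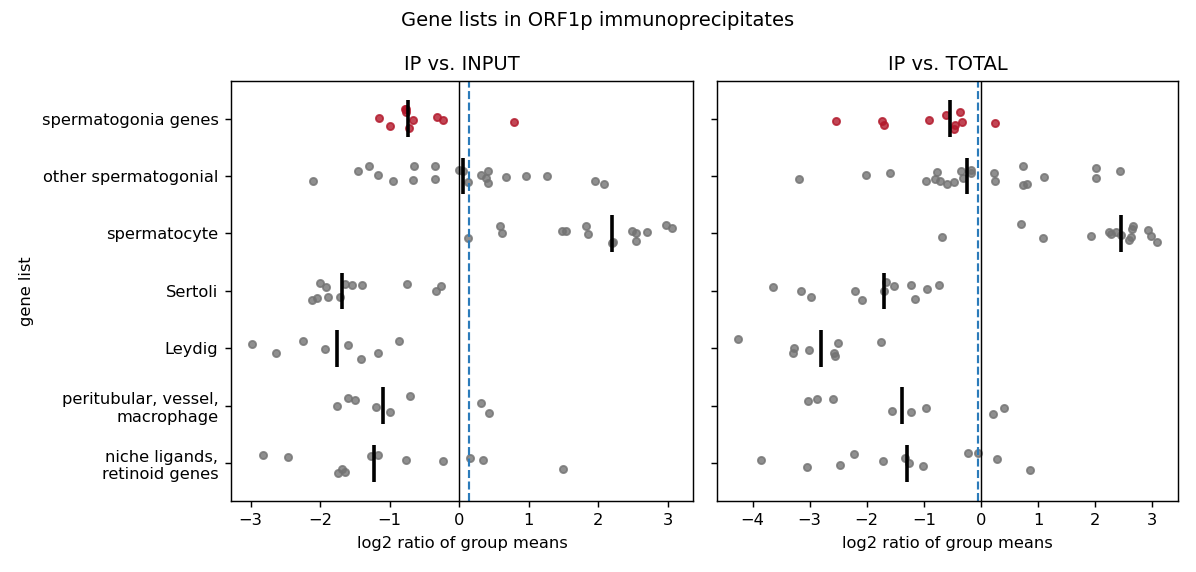
Log2 ratios of IP to INPUT (left) and IP to TOTAL (right) for single genes (dots) of 7 lists, with black bars at each list's median and a dashed line at the median of all genes used. Spermatid genes are left out, since 3 of 11 passed the filter against INPUT. Of the 8 that passed against TOTAL, all except Spaca1 did so only through the group in which they were higher. Spermatocyte genes lie to the right (medians 2.20 and 2.45), Sertoli and Leydig genes mostly to the left, and the median of the spermatogonia genes lies between those medians, while single genes overlap.

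The genes nearest to each of the 10 in their 3 IP ratios, among the 8106 genes whose mean reached 100 in every group, were in no case another member. Distance is Euclidean, over the log2 ratios to BO, INPUT and TOTAL. The nearest gene was Slc40a1 for Lin28a (distance 0.02), Trim7 for Gfra1 (0.06), Rbm47 for Kit (0.09), Ubtf for Etv5 (0.09), Ywhae for Stra8 (0.11), Slc43a2 for Sall4 (0.11), Tmem184a for Dmrt1 (0.13), Prickle2 for Zbtb16 (0.15), Slc25a5 for Uchl1 (0.30) and Acaa2 for Sohlh1 (0.34). The closest pair among the 10 was Zbtb16 and Kit, at 0.52. For each of the 10, between 50 and 2670 other genes of that search lay closer than its nearest fellow member, with all 10 taken as possible fellows although Gfra1, Uchl1, Stra8 and Sohlh1 have a BO mean under 100. Stra8 had the most distant nearest fellow, Sohlh1, at 1.93. Those low-BO members were not among the genes searched, so none of them could come out as a nearest gene. With so few members among 8106 genes, a nearest gene from outside the set was likely in any case. No other set of 10 genes was searched, so the distances do not show whether the members are more or less alike than other genes.

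Exons of 4 of the 10 genes overlap an annotated antisense gene, Gfra1 with Gm16277 (416 nt), Uchl1 with Uchl1os (295 nt), Sall4 with Gm14261 (526 nt) and Lin28a with Gm13061 (234 nt). The libraries were stranded, but the strand setting of the count is not given in the sources used here, so a share of reads from the antisense partner cannot be told apart for these 4.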

How the data were processed

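RNA-seq libraries (TOTAL, INPUT, BO and IP, 3 each) were ribosomal RNA-depleted and stranded. Per the labels, the submitters' processing notes name mm10, STAR 2.6.0c and DESeq2 1.24.0. The deposited signal in each of 3 tables (IP with BO, INPUT or TOTAL, normalized separately by the authors) is the mean DESeq2-normalized count of a group, rounded to 3 decimals, for 20981 genes and 781935 repeat loci. The tables also hold the authors' log2 fold changes, standard errors, test statistics and p-values, which were not used. The table of repeat subfamilies was not used either. There were 4 rows that name no gene (unmapped, multimapping, no feature, ambiguous), which were left out and held 21.2 to 23.4% of the reads of an IP library.

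The design foresaw group means only. After the files had been seen, the IP reads of each library were recovered by solving the 3 IP means of a row for whole reads. Of 385614 rows above 0, 385612 came out whole within 0.25 read, and for the 10 genes the largest distance was 0.144. Recovery was tested on simulated data and was exact for 100% of 18673 genes. Of simulated 4-fold changes, 200 of 200 passed the 2-fold threshold in IP vs. TOTAL, with 4 of the unchanged among 14882 genes. These draws held Poisson counting error only, without variation between libraries or a difference in scaling. The 4 are therefore not an error rate for the real libraries. For the other groups the value of 1 read in the mean gave the range of reads behind it and 95% Poisson intervals for the fewest reads.

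Ratios were log2 of (mean + 1) within a table. INPUT vs. TOTAL and BO vs. INPUT are differences of 2 such ratios through IP. Genes with a mean of at least 10 in either group were used. Alternatives were pseudocounts of 0.1 and 10, a threshold of 1.5-fold, centring on the median gene, scaling by the upper quartile or the sum of gene means, and leaving out each IP library. Lengths, coordinates and overlaps came from GENCODE M21 (mm10), matched for 19888 genes. Python 3.11.15 with numpy 2.4.6, pandas 2.3.3, scipy 1.17.1 and matplotlib 3.10.9 was used.

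The 10 genes and the other lists were chosen with earlier results of these data known. Named are all 10 genes, other spermatogonial and niche genes past 2-fold or that pair with a member, at most 2 genes of each other list with the highest TOTAL mean, and the gene nearest each member. Adgre1 of the macrophage markers had no row.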

Additional observations from a re-analysis of the deposited data

How the results depend on the processing

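Rescaling moved most ratios of the members by more than the SD of the IP libraries, 24 of 30 with upper quartile scaling, 24 of 30 with summed means and 30 of 50 when centred. No ratio past 2-fold turned in direction under any alternative run, but below 2-fold those of Gfra1 and Dmrt1 to BO and of Sall4 to TOTAL did. Against INPUT, the number of lower members went from 1 to 2 when centred on the median gene, to 7 with upper quartile scaling, 7 with scaling to summed means and 7 at a threshold of 1.5-fold, beside 25%, 29% and 25.5% of all genes. At 1.5-fold 1 was also higher in place of 0 (34.3% of all genes). It ranged from 1 to 2 when each IP library was left out, with 2 only without library c. Lower members against BO went from 3 to 5 when centred, by the upper quartile, by summed means and at 1.5-fold (24.6%, 22.1%, 15.3% and 17.2% of all genes). Lower members against TOTAL went from 3 to 5 by summed means and at 1.5-fold (38.9% and 36.5%). In BO vs. INPUT centring moved the counts from 1 higher and 5 lower to 4 and 2. All other counts stayed within 1.5 times their value. Leaving out an IP library changed no other count of members in the IP comparisons. A pseudocount of 0.1 moved 1 ratio by more than that SD and a pseudocount of 10 moved 3. No paired analysis was possible because the tables give group means and the replicate numbers of the recovered IP libraries are not known. Depth limits Sohlh1 and Gfra1 most, and the spread between TOTAL, INPUT or BO libraries was not available from the means used.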
